A study of Sus scrofa with 16 samples.

Results

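Liver transcript levels of pigs fed coconut oil (group C) were compared with the equal-weight mean of the levels in pigs fed rapeseed oil (group R) and pigs fed beef tallow (group B). The aim was to describe what was particular to the coconut oil feed, the one rich in medium-chain fat. All 16 pigs of the series entered the comparison, 6 in group C (3 gilts and 3 barrows), 5 in group R (3 gilts and 2 barrows) and 5 in group B (2 gilts and 3 barrows). Every pig was a cross of Polish Landrace x Polish Large White sows and Duroc x Pietrain boars, was penned alone on straw, and was fattened from 60 kg to 118 kg. The 3 feeds had like energy and protein and differed in the fat, the labels name no drug or genetic change, and no feed without added fat is among the groups. By the study, the feed of group C was also the most saturated and the lowest in polyunsaturated fatty acids. Chain length and saturation therefore cannot be told apart in this comparison. The ages of the pigs are not given in the labels. One 3′ mRNA library was sequenced per pig from whole liver, so each value is a mixture over all liver cells.

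Coconut oil is rich in medium-chain saturated fatty acids such as lauric and capric acid, while rapeseed oil is mainly unsaturated and beef tallow is rich in palmitic, stearic and oleic acid. The shorter medium-chain fatty acids, such as capric acid, reach the liver largely through the portal vein. They enter mitochondria largely without the carnitine shuttle and are oxidised there or turned into ketone bodies. Long-chain fatty acids need CPT1A and CPT2, the carnitine palmitoyltransferases, to take that path. The liver also makes the acute phase proteins of the blood, bile acids and cholesterol. It regulates fat and cholesterol metabolism through transcription factors such as PPARA, SREBF2 and MLXIPL.

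Markers of hepatocytes and of some other cells were counted. Of 15 hepatocyte markers 14 had enough reads to be tested, and of the 9 neutrophil and monocyte markers with an identifier none had, with MPO and ELANE at 0 reads in all pigs. Of the 8 adipose and muscle markers with an identifier 1 had, the skeletal muscle actin ACTA1. Reads on genes numbered 705669 in the smallest library and 1767671 in the largest, and the mean of group C differed from that of the other 10 pigs by 126617 reads (two-sided exact permutation test, p = 0.458). Beef tallow pig 3 stood apart on the first principal component of the log2 levels, which took 19.3% of their variance.

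Of 6891 genes tested, 3 differed between group C and the long-chain mean at an edgeR adjusted p under 0.05 (0.0435% of genes tested), and all 3 fell in group C. They were ITIH4, an acute phase protein, and 2 genes without a symbol in the table used here, ENSSSCG00000013514 and ENSSSCG00000035879. The study calls ENSSSCG00000013514 PLIN5, a lipid droplet protein, but the table gives that symbol to ENSSSCG00000013513, so its identity is uncertain. The 3 shared an adjusted p of 0.0488, close to the threshold, and no gene passed in 13 of the 16 fits that left out 1 pig, nor when sex was added to the model. ITIH4 was still called without rapeseed oil pig 3, ENSSSCG00000013514 without coconut oil pig 4, and all 3 without beef tallow pig 2. At an unadjusted p under 0.05 there were 661 genes, 330 higher in group C (4.79%) and 331 lower (4.8%). The median difference over all genes was 0.01 on the log2 scale.

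ITIH4 lies on chromosome 13 from 34928455 to 34948250 (Sscrofa11.1). Its level, in normalised counts scaled to the library size (CPM), was 1199, 1950, 842, 1457 and 1329 in the 5 pigs of group R. In group B it was 2037, 2226, 2049, 3581 and 2294 CPM. In group C the 6 pigs ran from 634 to 1203 CPM with a median of 853. All pigs of group C lay below all pigs of group B, and 3 of the 6 lay below every pig of the other diets. The log2 difference was −1.01 (SE 0.19) from the long-chain mean, −0.59 (SE 0.21, edgeR adjusted p = 0.319) from group R and −1.43 (SE 0.21, adjusted p = 0.00588) from group B.

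ENSSSCG00000013514 was the one called gene in which all 6 pigs of group C lay below all of the other 10. Its level was 222, 338, 248, 333 and 221 CPM in group R and 322, 227, 354, 383 and 298 CPM in group B. Group C ran from 120.3 to 203 CPM with a median of 167. Its log2 difference was −0.84 (SE 0.15) from the long-chain mean, −0.73 (SE 0.18) from group R and −0.95 (SE 0.18) from group B, so that the distance was like from either fat.

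ENSSSCG00000035879 had the lowest reads of the 3, with 2 to 16 reads per pig in group C. It was therefore not tested in the fit that asked for at least 10 reads in every pig. Its level was 36.8, 27.7, 37.5, 36.1 and 24.6 CPM in group R and 27.5, 9.55, 27.6, 30.8 and 18.8 CPM in group B. Group C ran from 1.62 CPM in coconut oil pig 1 to 14.0 CPM, with a median of 8.81, and overlapped with beef tallow pig 2, at 9.55 CPM, and no other. The log2 difference was −1.63 (SE 0.30) from the long-chain mean.

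**Figure D1:**
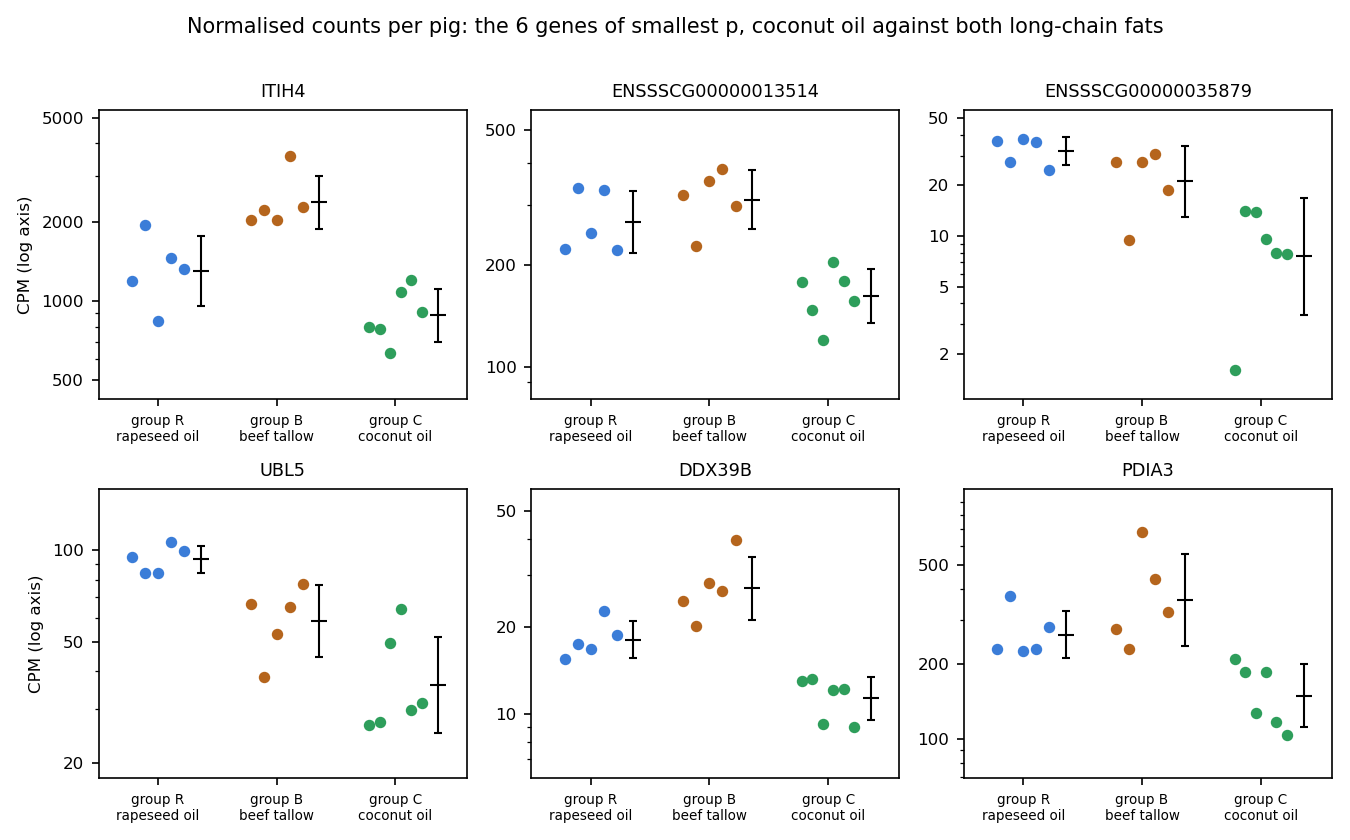
Normalised counts of the 6 genes with the smallest p, in CPM on a log axis, with 1 point per pig of group R (blue), group B (brown) and group C (green), and beside each group the geometric mean with bars of 1 SD of the log2 values. Group C has the lowest geometric mean in each panel, and in ENSSSCG00000013514, DDX39B and PDIA3 its 6 pigs do not overlap with the other 10.

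The next genes missed the threshold. UBL5, a ubiquitin-like protein of splicing and of the mitochondrial stress response, was at 84.0 to 106 CPM in group R, 38.2 to 77.4 CPM in group B and 26.7 to 64.1 CPM in group C, with a log2 difference of −1.01 (SE 0.20, edgeR adjusted p = 0.0736). DDX39B, an RNA helicase of mRNA export, was at 15.4 to 22.7 CPM in group R, 20.2 to 39.8 CPM in group B and 9.01 to 13.2 CPM in group C (−0.96, SE 0.20, adjusted p = 0.095). PDIA3, a disulfide isomerase that folds glycoproteins in the endoplasmic reticulum, was at 225 to 376 CPM in group R, 229 to 681 CPM in group B and 103.6 to 209.6 CPM in group C (−1.07, SE 0.22, adjusted p = 0.103). Without beef tallow pig 3, the highest for PDIA3, its difference was −0.92 and its adjusted p 0.088.

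Complete separation of group C from the other 10 pigs was rare. All 6 pigs lay above the other 10 in 2 genes (0.029%) and below in 5 (0.0726%). The 2 above were ATP5IF1, the inhibitor of the mitochondrial ATP synthase, and ENSSSCG00000002529, which has no symbol in the table and which the study names as the ribosomal protein RPS21, a symbol that the table gives to another identifier. ATP5IF1 was at 161 to 219 CPM in group C and 105.1 to 156 CPM in the other pigs, with a log2 difference of 0.45 (SE 0.12, edgeR adjusted p = 0.204). ENSSSCG00000002529 was at 333 to 449 CPM against 180.3 to 327 CPM (0.59, SE 0.14, adjusted p = 0.177). The 5 below were ENSSSCG00000013514, DDX39B, PDIA3, ENSSSCG00000034990 and ASCC1, a subunit of a transcription coactivator complex. ASCC1 ran from 10.8 to 19.7 CPM in group C and from 20.6 to 31.0 CPM in the others (−0.69, SE 0.17, adjusted p = 0.204). ENSSSCG00000034990 ran from 7.28 to 10.1 CPM against 11.5 to 19.7 CPM. All 7 were singled out after their values were seen.

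A difference from the mean of the 2 fats can come from 1 of them, so each gene was also tested against both at once. No gene passed when group C had to differ in the same direction from group R and from group B (intersection-union test on the edgeR fits, smallest adjusted p = 1, 0 genes). At an unadjusted p under 0.05, 154 genes did (2.23% of genes tested), 63 with group C higher and 91 with group C lower. DESeq2 gave 0 genes after adjustment as well, and 155 before. These 154 made up 23.3% of the 661 genes of the combined comparison. Of the rest, 212 (32.1%) reached p under 0.05 against group R alone, 239 (36.2%) against group B alone, and 56 (8.47%) against neither.

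Taken singly, 6 genes differed from group R at an edgeR adjusted p under 0.05 in the fit of 16 pigs (0.0871%) and 8 from group B (0.116%). The 2 comparisons share the 6 pigs of group C. Against group R, HSPA8, BAG3, IYD and EGFR were higher and UBL5 and ENSSSCG00000035879 lower. Against group B all 8 were lower, namely ITIH4, LITAF, PID1, DDX39B, FGA, LBP, ENSSSCG00000013514 and PDIA3. ENSSSCG00000035879 was thus called against group R and the long-chain mean, and ITIH4 and ENSSSCG00000013514 against group B and the long-chain mean.

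**Figure D2:**
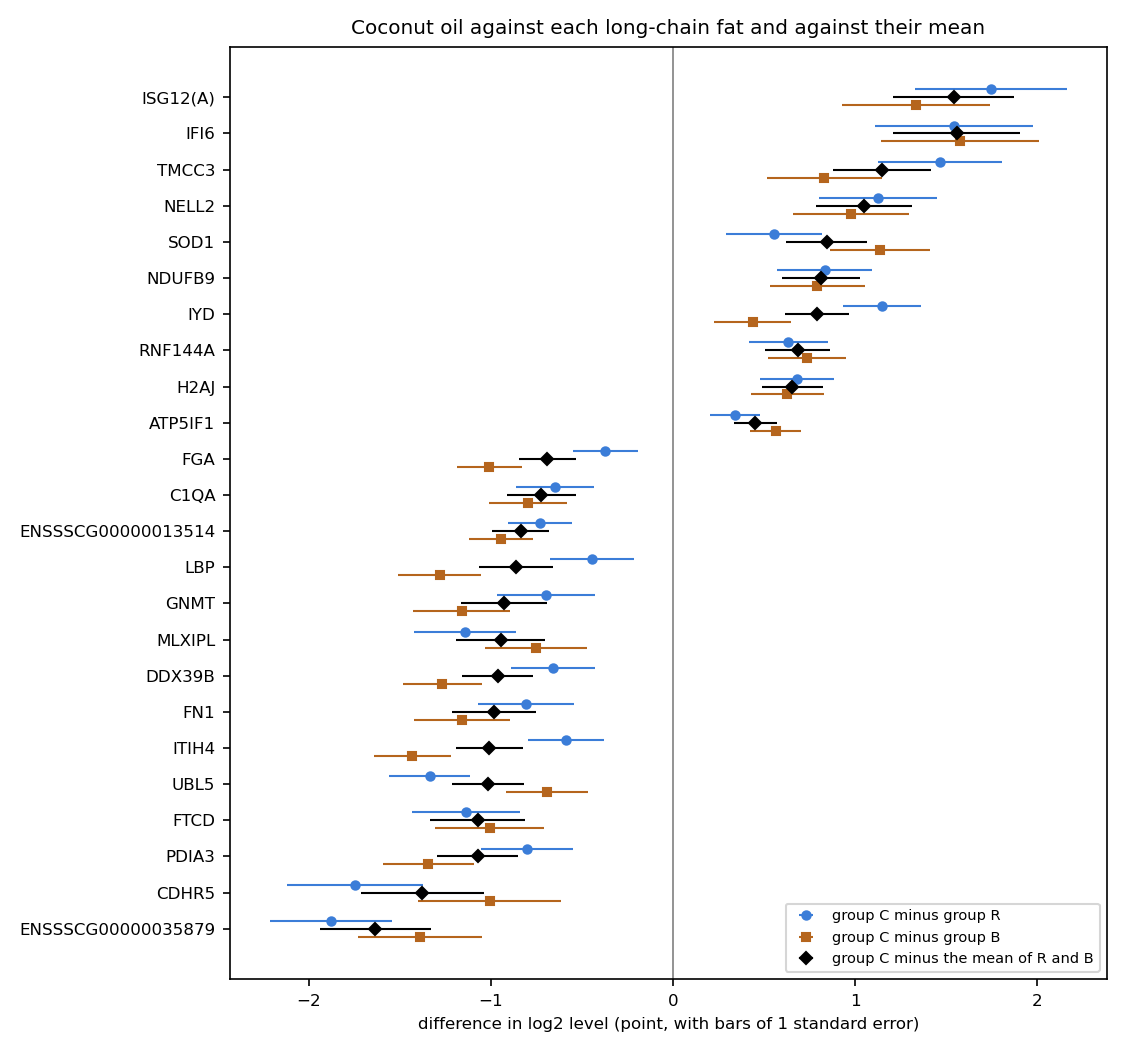
Differences in log2 level of group C from group R (blue circles), from group B (brown squares) and from the mean of both (black diamonds), with bars of 1 standard error. The 24 genes are all named in the text but RNF144A, which had 0.68 (SE 0.18) from the mean of both. Both single differences have the same sign in every gene shown, and those of ITIH4, LBP, FGA and DDX39B are larger from group B while those of UBL5, IYD and CDHR5 are larger from group R.

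Genes of fatty acid breakdown, the process medium-chain fat feeds most directly, held no detectable difference. Of 18 tested members of the list of medium-chain acyl-CoA metabolism and beta-oxidation, 10 were higher and 8 lower in value, none reached even an unadjusted p of 0.05 in either direction, and the median was 0.01, the same as over all genes. ACADM, the medium-chain acyl-CoA dehydrogenase, was at 365.5 to 617 CPM in group C (median 521) and 264.5 to 815 CPM in the other pigs, a log2 difference of 0.02 (SE 0.19, edgeR adjusted p = 0.979). HADHA and HADHB, the subunits of the trifunctional protein, had 0.24 (SE 0.18) and 0.25 (SE 0.18). The widest difference in the list was that of ACSM3, a medium-chain acyl-CoA synthetase, at 0.38 (SE 0.24). With a standard error near 0.2, differences well above 0.2 would also go uncalled at this depth and number of pigs. UBL5, at −1.01 (SE 0.20), missed the adjusted threshold (edgeR adjusted p = 0.0736).

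The carnitine shuttle, which the shorter medium-chain acids largely bypass, had 1 of 10 tested members at an unadjusted p under 0.05, downward (10%, beside 4.8% of all genes). This was CPT2, at 23.1 to 85.9 CPM in group C, 31.0 to 151 CPM in group R and 64.7 to 197 CPM in group B, with a log2 difference of −0.70 (SE 0.30, edgeR adjusted p = 0.466). The groups overlapped widely. Among 10 genes of ketogenesis and PPARA targets, 9 were higher in value and the median was 0.26 (0.39 from group R and 0.09 from group B). ANGPTL4 and G0S2 reached an unadjusted p under 0.05 upward (2, 20%, beside 4.79% of all genes) and none did downward. G0S2 had 1.42 (SE 0.61, edgeR adjusted p = 0.467). It was at 6.47 to 83.3 CPM in group C, 3.93 to 17.4 CPM in group R and 0 to 61.1 CPM in group B. ANGPTL4, a PPARA target that inhibits lipoprotein lipase, was at 173 to 436 CPM in group C and 101.5 to 214 CPM in the others (0.66, SE 0.19, edgeR adjusted p = 0.282), with coconut oil pigs 5 and 6 above the rest at 436 and 347 CPM. The identifier that the symbol table calls PLIN5, ENSSSCG00000013513, had −0.37 (SE 0.28), and the one that the study calls PLIN5 is the called gene ENSSSCG00000013514, which the list does not count.

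The nuclear-encoded subunits of the respiratory chain and ATP synthase leaned upward by small steps. Of 57 tested, 45 were higher and 12 lower in value, 10 (17.5%) reached an unadjusted p under 0.05 upward and 1 downward, beside 4.79% and 4.8% of all genes. None passed adjustment. The median was 0.12 on the log2 scale, 0.08 from group R and 0.15 from group B, beside 0.01 over all genes in the combined comparison. The 10 included NDUFB9, NDUFA6 and NDUFS5 of complex I, UQCR11 of complex III, COX7B and COX7C of complex IV, ATP5MK and ATP5MC3 of the ATP synthase, and ATP5IF1, its inhibitor. NDUFB9 was at 42.4 to 67.8 CPM in group C and 14.4 to 43.5 CPM in the others (0.81, SE 0.21, edgeR adjusted p = 0.204). COX7C was at 528 to 698 CPM in group C, 356 to 533 CPM in group R and 251 to 503 CPM in group B (0.46, SE 0.14). The exception was NDUFA11 at −0.47 (SE 0.21). Beef tallow pig 3 had the lowest values for NDUFB9 and COX7C. Without it 11 of 57 reached p under 0.05 upward and the median was 0.16, and over all fits that left out 1 pig the count ran from 5 to 15 and the median from 0.10 to 0.18.

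**Figure D3:**
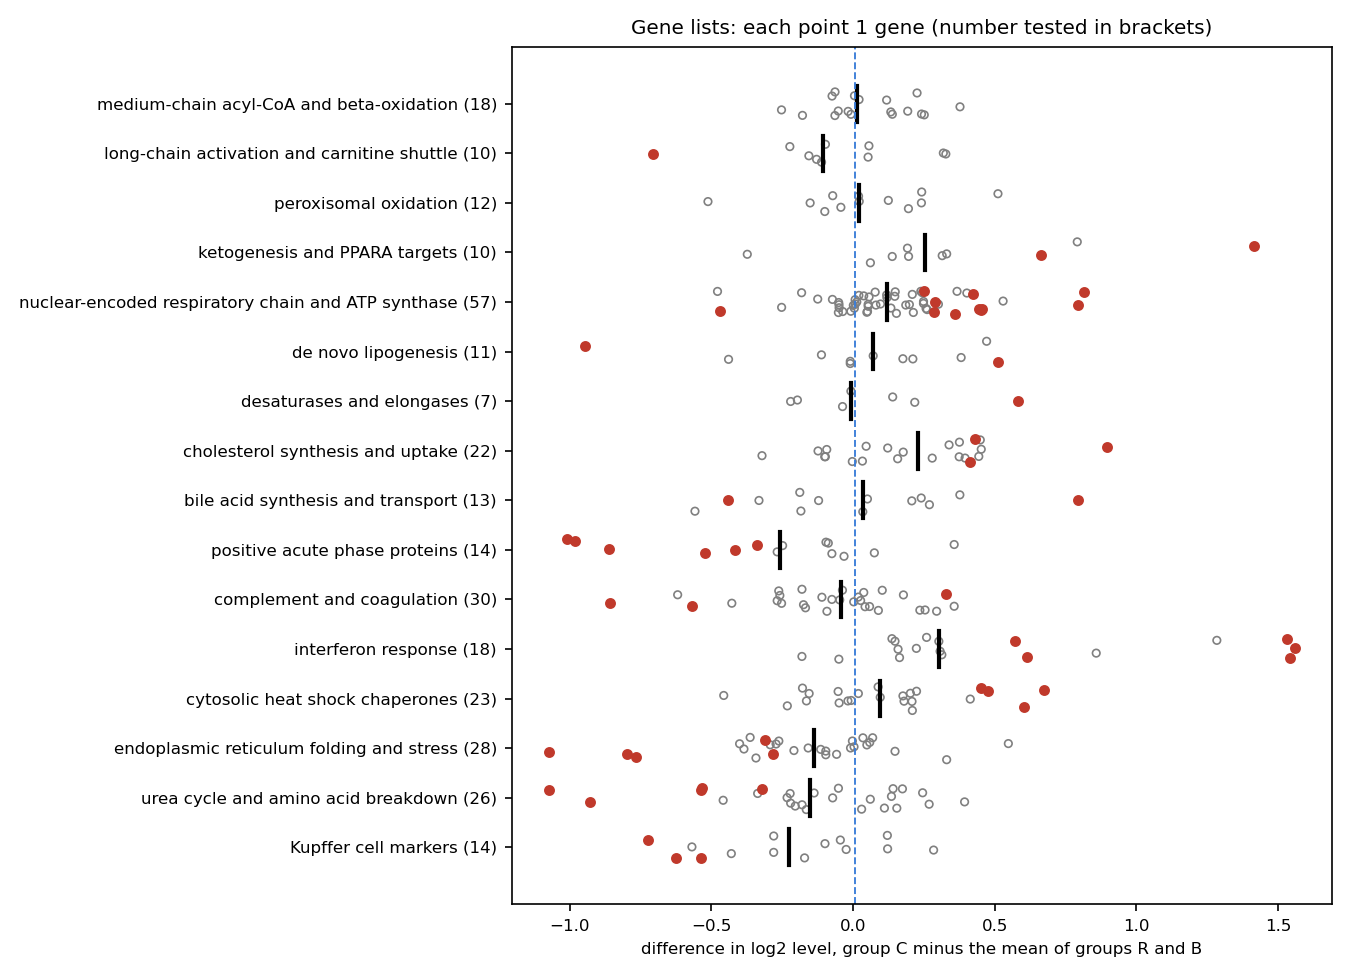
Differences in log2 level of group C from the mean of groups R and B for the tested members of 16 gene lists, with 1 point per gene, filled red at an unadjusted p under 0.05 and open otherwise. Black bars mark each list's median and the dashed blue line the median of all genes at 0.01. The beta-oxidation and peroxisomal lists have no red point. Red points lie only to the right in the interferon, heat shock, cholesterol, ketogenesis and desaturase lists, and all but 1 do in the respiratory chain list. They lie only to the left in the acute phase, endoplasmic reticulum, urea cycle, Kupffer cell and carnitine shuttle lists.

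Fat synthesis was mixed. MLXIPL, the carbohydrate-responsive factor ChREBP, was at 78.0, 101.6, 103.4, 64.9 and 153 CPM in group R and at 68.0, 40.3, 112, 52.1 and 107 CPM in group B. Group C ran from 28.2 to 61.7 CPM with a median of 49.2, below every pig of group R and overlapping with group B. The log2 difference was −0.95 (SE 0.25, edgeR adjusted p = 0.204). FASN, the fatty acid synthase, had −0.44 (SE 0.33) and SCD, the stearoyl-CoA desaturase, 0.07 (SE 0.27), both with pigs of each diet spread over each other. ELOVL6, which lengthens palmitate, had 0.51 (SE 0.24, adjusted p = 0.506) and FADS2, the delta-6 desaturase of polyunsaturated fatty acids, 0.58 (SE 0.18, adjusted p = 0.299). FADS2 was at 465.8 to 734 CPM in group C, 290.1 to 551 CPM in group R and 232 to 558 CPM in group B. Of 11 tested lipogenic genes 6 were higher and 5 lower in value, with a median of 0.07.

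The median of cholesterol genes had opposite signs against the 2 long-chain fats. Of 22 tested, 16 were higher in value and 3, TM7SF2 and CYP51A1 among them, reached an unadjusted p under 0.05 upward (13.6%, beside 4.79% of all genes). TM7SF2, a sterol reductase, had 0.90 (SE 0.34, edgeR adjusted p = 0.409) and CYP51A1, the lanosterol demethylase, 0.43 (SE 0.18, adjusted p = 0.458). The median was 0.23 from the long-chain mean, but −0.18 from group R and 0.55 from group B. CYP7A1, the rate-limiting enzyme of bile acid synthesis, was at 211, 145, 243, 96.8 and 143 CPM in group R, at 33.6, 61.5, 11.82, 15.9 and 13.3 CPM in group B and at 33.8 to 186 CPM in group C (median 131). Its log2 difference was −0.52 (SE 0.38) from group R and 2.11 (SE 0.44, edgeR adjusted p = 0.0566) from group B.

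Positive acute phase genes, which rise in inflammation, leaned downward. Of 14 tested positive acute phase genes, 12 were lower in value, 6 (42.9%, beside 4.8% of all genes) reached an unadjusted p under 0.05 downward and none upward, and the median was −0.26, −0.21 from group R and −0.34 from group B. The 6 were ITIH4, LBP, FN1, A2M, FGG and SERPING1. Over all fits that left out 1 pig the downward count ran from 5 to 7 and the median from −0.33 to −0.18. LBP, the lipopolysaccharide-binding protein, was at 131, 79.0, 206, 162 and 88.5 CPM in group R and 198, 211, 261, 308 and 206 CPM in group B. Group C ran from 75.4 to 149 CPM with a median of 89.3, below all of group B and within the range of group R but for 1 pig. The log2 difference was −0.86 (SE 0.20, edgeR adjusted p = 0.177). FN1, plasma fibronectin, was at 140.0 to 299 CPM in group C, 282 to 405 CPM in group R and 267 to 948 CPM in group B (−0.98, SE 0.23, adjusted p = 0.177), and without beef tallow pig 3, at 948 CPM, the difference was −0.77.

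FGA and HP, which the study names but the symbol table does not, were outside the counts of that list. FGA, the fibrinogen alpha chain, was at 16410 to 21840 CPM in group R, 22900 to 44430 CPM in group B and 12140 to 17910 CPM in group C, a log2 difference of −0.69 (SE 0.16, edgeR adjusted p = 0.151) that was −0.37 from group R and −1.01 from group B. HP, haptoglobin, was at 24910 to 33030 CPM in group C and 29580 to 57360 CPM in the others (−0.37, SE 0.13, adjusted p = 0.376). Negative acute phase genes had 5 of 10 higher and 5 lower in value, with TF, transferrin, at −0.33 (SE 0.14) and FETUB at 0.43 (SE 0.20). Of 30 complement and coagulation genes 14 were higher and 16 lower. At an unadjusted p under 0.05, 1 was higher (3.33%, beside 4.79% of all genes), F2 at 0.33 (SE 0.13). Downward there were 2 (6.67%, beside 4.8%), F7 and SERPINF2, the plasmin inhibitor, which had −0.86 (SE 0.30).

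Endoplasmic reticulum folding genes were lower in value in 20 of 28 tested, with 5 (17.9%, beside 4.8% of all genes) at an unadjusted p under 0.05 downward and none upward. The 5 were PDIA3, EIF2AK3, SYVN1, SEL1L and CALR. Beef tallow pig 3 was the highest of all pigs for PDIA3 (681 CPM), SYVN1 (212 CPM) and CALR (697 CPM). Over all fits that left out 1 pig the downward count ran from 3 to 9 and the median from −0.25 to −0.09. The median was −0.14 from the long-chain mean, 0.11 from group R and −0.34 from group B. EIF2AK3, the stress sensor kinase PERK, was at 8.77 to 16.5 CPM in group C, 13.2 to 20.5 CPM in group R and 18 to 35.1 CPM in group B (−0.80, SE 0.22, edgeR adjusted p = 0.239). Cytosolic heat shock chaperones had 14 of 23 higher in value, with 4 (17.4%, beside 4.79% of all genes) at an unadjusted p under 0.05 upward, namely DNAJA1, FKBP4, BAG3 and HSPA8. The median of the 23 was 0.10 from the long-chain mean, 0.21 from group R and −0.03 from group B. DNAJA1, a partner of HSP70, was at 252 to 375 CPM in group C against 104 to 212 CPM in group R and 95.8 to 284 CPM in group B (0.67, SE 0.19, adjusted p = 0.252).

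Genes of amino acid breakdown were lower in value in 16 of 26 tested, 5 (19.2%, beside 4.8% of all genes) at an unadjusted p under 0.05 downward and none upward, with a median of −0.15. FTCD, a folate-dependent enzyme of histidine breakdown, was at 146, 141, 111, 86.5 and 145 CPM in group R, 96.3, 80.6, 216, 70.1 and 107 CPM in group B and 25.7 to 102 CPM in group C (−1.07, SE 0.26, edgeR adjusted p = 0.204). GNMT, which uses up S-adenosylmethionine to methylate glycine, was at 274 to 552 CPM in group R, 417 to 1075 CPM in group B and 164 to 428 CPM in group C (−0.93, SE 0.24, adjusted p = 0.204). Without beef tallow pig 3, the highest for both, the differences were −0.90 and −0.77. The median of the list without this pig was −0.04.

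Interferon response genes were higher in value in 16 of 18 tested, 5 at an unadjusted p under 0.05 upward (27.8%, beside 4.79% of all genes) and none downward, with a median of 0.31. ISG12(A), a small interferon-induced mitochondrial protein, was at 52.2, 11.3, 51.7, 24.7 and 43.3 CPM in group R and 39.0, 54.1, 40.7, 61.6 and 50.9 CPM in group B. In group C the 6 pigs were at 263, 44.7, 66.3, 152, 164 and 47.9 CPM, 4 of them above every other pig (1.54, SE 0.33, edgeR adjusted p = 0.128). IFI6, of the same kind, was at 165 to 964 CPM in group R, 401 to 714 CPM in group B and 1974, 613, 799, 1408, 4027 and 939.7 CPM in group C (1.56, SE 0.35, adjusted p = 0.151).

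Among the 5, USP18 and IFIH1 were high in a single pig. Coconut oil pig 1 was at 52.6 CPM for USP18, a protease that removes ISG15, and at 124 CPM for IFIH1, the RNA sensor MDA5, while the rest of group C was at 4.28 to 15.8 CPM and 33.0 to 50.8 CPM. Without it, 7 of 16 tested genes of the list were higher and 9 lower in value, 2 reached an unadjusted p under 0.05, and the median was −0.12. ISG12(A) and IFI6 then had 1.16 and 1.49. Without coconut oil pig 5, the highest for IFI6, that gene had 1.05.

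**Figure D4:**
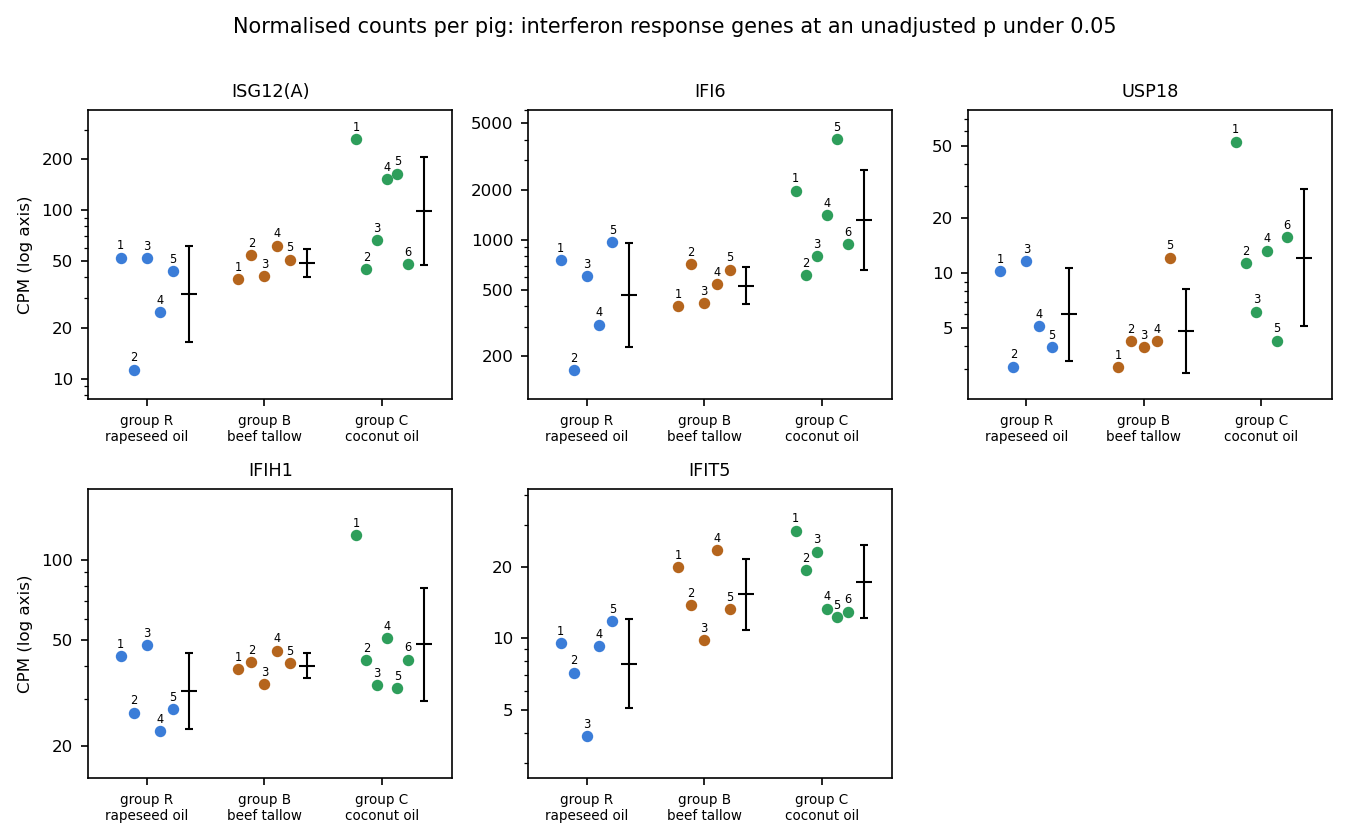
Normalised counts of the 5 interferon response genes at an unadjusted p under 0.05, in CPM on a log axis, with points numbered by pig within each diet and the geometric mean with bars of 1 SD of the log2 values beside each group. Coconut oil pig 1 is the highest of its group in ISG12(A), USP18, IFIH1 and IFIT5, and coconut oil pig 5 in IFI6.

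Markers of other liver cells were counted beside these lists. Of 14 tested Kupffer cell markers 11 were lower in value, 3 (21.4%, beside 4.8% of all genes) at an unadjusted p under 0.05 downward, and the median was −0.23. C1QA, a complement subunit made by macrophages, was at 258 to 426 CPM in group C, 390.4 to 685 CPM in group R and 430.3 to 978 CPM in group B (−0.72, SE 0.19, edgeR adjusted p = 0.204). TIMD4, a receptor of resident Kupffer cells, had −0.62 (SE 0.21) and CD68 −0.54. The summed level of the 14 was 1454 to 1942 CPM in group C, 1309 to 2399 CPM in group R and 1789 to 2986 CPM in group B, so the groups overlapped. In whole liver, fewer Kupffer cells and less RNA per Kupffer cell cannot be told apart. The part of these cells in the acute phase and interferon values was not tested. The 14 hepatocyte markers summed to 140000 to 238500 CPM in group C, 151400 to 208000 CPM in group R and 94590 to 202700 CPM in group B, with a median difference of −0.05.

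Several genes with no list in common were among the leading ones upward. IYD, the deiodinase that recovers iodide from iodotyrosines, was at 207, 131, 144, 217 and 129 CPM in group R, 269, 252, 150.3, 337 and 350 CPM in group B and 290.0 to 481 CPM in group C (0.79, SE 0.18, edgeR adjusted p = 0.151). It lay above all of group R and overlapped with group B, and its difference was 1.15 (SE 0.22, adjusted p = 0.035) from group R and 0.44 (SE 0.21) from group B. NELL2, a secreted glycoprotein, was at 45.6 to 80.9 CPM against 8.83 to 53.1 CPM (1.05, SE 0.26). TMCC3, an endoplasmic reticulum membrane protein, was at 11 to 28.7 CPM against 4.10 to 14.9 CPM (1.15, SE 0.27). H2AJ, a histone H2A variant, was at 56.9 to 87.8 CPM against 24.9 to 57.3 CPM (0.65, SE 0.17), and SOD1, the cytosolic superoxide dismutase, at 11.3 to 32.1 CPM against 7.43 to 19.9 CPM (0.84, SE 0.22). Downward, CDHR5, a cadherin of the brush border, was at 0.88 to 12.3 CPM against 10.6 to 31.6 CPM (−1.38, SE 0.34), and ZNRF1, a ubiquitin ligase, at 10.4 to 23.0 CPM against 16.2 to 58.4 CPM (−0.96). Each of the 7 had an edgeR adjusted p between 0.151 and 0.204.

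For another set of genes the long-chain mean hid opposite or one-sided differences, and here group C did not stand outside both fats. EGFR, the epidermal growth factor receptor, was at 32.3 to 52.3 CPM in group R, 107 to 167 CPM in group B and 63.2 to 101.1 CPM in group C. The 3 ranges did not overlap, with group C in the middle. Its difference was 0.94 (SE 0.18, edgeR adjusted p = 0.0398) from group R, −0.80 (SE 0.17, adjusted p = 0.0624) from group B and 0.07 (SE 0.15) from their mean. HSPA5, the chaperone BiP of the endoplasmic reticulum, was at 474 to 731 CPM in group R, 1205 to 2101 CPM in group B and 597 to 1366 CPM in group C, with 0.76 (SE 0.20), −0.78 (SE 0.19) and −0.01 (SE 0.17).

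Group C lay with beef tallow in some genes and with rapeseed oil in others. HSPA8, the constitutive HSP70, was at 114 to 191 CPM in group R, 291 to 483 CPM in group B and 279 to 448 CPM in group C, with a difference of 1.14 (SE 0.18, edgeR adjusted p = 0.0188) from group R and −0.24 (SE 0.18) from group B. BAG3, its co-chaperone, had 1.5 (SE 0.27, adjusted p = 0.0305) and −0.29 (SE 0.26), and CPT1A 0.92 (SE 0.23, adjusted p = 0.153) and −0.28 (SE 0.22). LITAF, a factor of the response to lipopolysaccharide that the study names, was at 58.0 to 182 CPM in group R, 255 to 351 CPM in group B and 91.4 to 130 CPM in group C. Its difference was −0.06 (SE 0.23) from group R and −1.42 (SE 0.22, adjusted p = 0.00808) from group B. SGK1, a kinase induced by glucocorticoids, had −0.14 (SE 0.31) and −1.46 (SE 0.30, adjusted p = 0.0566). The test against both fats could not call HSPA8, BAG3 or CPT1A, whose differences from the 2 fats had opposite signs. It called no gene among all those tested, so it adds nothing on LITAF or SGK1.

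**Figure D5:**
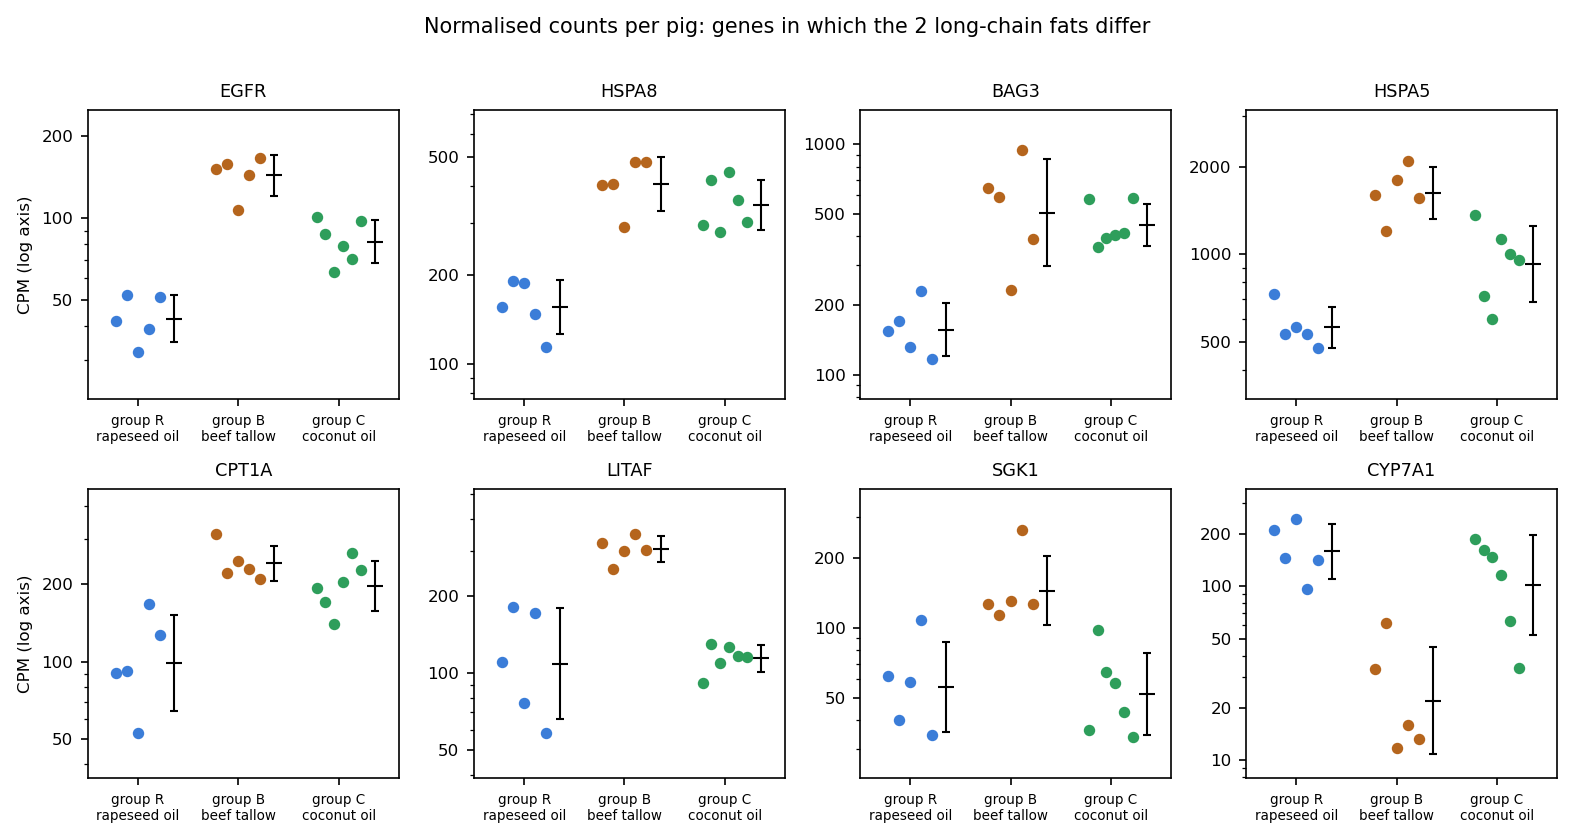
Normalised counts of 8 genes in which groups R and B lie apart, in CPM on a log axis, with 1 point per pig and the geometric mean with bars of 1 SD of the log2 values. Group C lies between the other diets in EGFR and HSPA5, nearer group B in HSPA8, BAG3 and CPT1A, and nearer group R in LITAF, SGK1 and CYP7A1.

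The difference of group C from the long-chain mean was also compared between gilts and barrows. No gene had a difference between the sexes at an edgeR adjusted p under 0.05 (0 of 6891, smallest adjusted p = 1), and 235 had an unadjusted p under 0.05. The smallest p was that of FDFT1, squalene synthase, with a log2 difference of 1.26 in gilts and −0.35 in barrows, which rests on 2 or 3 pigs of each diet and sex.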

How the data were processed

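Liver RNA of 16 pigs was read by 3′ mRNA sequencing. The authors trimmed the reads, aligned them to the Sus scrofa 11.1 genome by TopHat and tallied them per Ensembl gene by HTSeq, and the deposited values are raw counts, whole numbers for 25880 genes and 5 tallies of unassigned reads. Reads with several alignments (15.4% to 38.1% per pig) count on no gene, and the strand setting is not given in the sources used here, so near-identical and overlapping genes are uncertain.

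All pigs were fitted together in edgeR 4.0.16 (R 4.3.3) and tested by quasi-likelihood, with TMM normalization, filterByExpr (minimum count 10, total 15), 3 diet means and no covariate. The contrast was group C minus the mean of groups R and B. The test outside both fats takes the larger of the p-values against each fat where the signs agree. P-values were adjusted by Benjamini-Hochberg over the 6891 genes tested. The standard error is the size of a log2 difference over the square root of F. Levels are CPM. Leaving out each pig in turn, DESeq2 1.42.0, RLE, both filters, sex, the replicate number as a block, 1 control group of 10 and thinned counts were alternatives. The fits were tested on simulated data.

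A symbol table named 6049 of the genes tested, and the study a further 18, which are not counted in lists. Positions are RefSeq's, matched by symbol. Genes named are those past the threshold, the 10 of smallest p in each direction, up to 2 per list at an unadjusted p under 0.05, and 22 genes of the study's pathways where tested. Some of these genes are not reported here, but stayed in the fits and lists. Members of lists beyond these are named as part of a count of their list. Members and the 39 lists were chosen with earlier results of these data known. Each library is 1 pig, and intervals for counting error were not computed.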

Additional observations from a re-analysis of the deposited data

Results flagged for a closer look

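Among the 213 sets of values made of the genes named and the 3 diets, 12 held 1 pig far from the rest of its diet, where chance flags about 1 in 20. The measure is the gap to the nearest pig over the range of the diet, on the log2 scale. In beef tallow, pig 4 was high for ITIH4 (0.789, 3581 CPM against 2037 to 2294) and for SGK1 (0.841, 264.6 CPM against 113.5 to 130.0). Beef tallow pig 3 was low for DNAJA1 (0.759, 95.8 CPM against 219 to 284) and PSMB8 (0.745, 4.59 CPM against 10.6 to 13.8), and beef tallow pig 5 for PSMC2 (0.744). In rapeseed oil, pig 3 was low for FN1 (0.809) and SERPINF2 (0.724, 164 CPM against 439 to 637), and pig 2 was high for LYVE1 (0.857). In coconut oil, pig 1 was low for ENSSSCG00000035879 (0.68, 1.62 CPM against 7.88 to 14.0), pig 2 high for FADS2 (0.646), pig 3 high for BTG1 (0.801, 134 CPM against 60.5 to 71.0) and pig 5 high for FDFT1 (0.843, 548 CPM against 212 to 246).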

How the results depend on the processing

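The number of genes differing from the long-chain mean depended on the settings. In place of 3 it was 19 with DESeq2 and 19 without the filter on low counts, 15 and 14 of them lower, and all 3 were among them in both. It was 0 with sex as a covariate, 0 against the 10 other pigs as 1 group, 0 with thinned counts, and 0 to 6 without 1 pig, the highest without beef tallow pig 2. Against group R (6) it was 45, 32, 2 with sex and 1 with thinned counts, and 0 to 22 without 1 pig (22 without beef tallow pig 3). Against group B (8) it was 60, 42, 4 with only the 2 diets fitted, and 4 to 15 without 1 pig. Outside both fats 1 gene, IFI6, passed without the filter (adjusted p = 0.0431). For the difference between the sexes 15 passed without the filter, and 0 to 2 without 1 pig (2 without beef tallow pig 1).

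With the replicate number as a block, the combined count was 0, that against group R 4 and that against group B 5. The correlation of deviations over 15 same-number pairs ran from −0.25 to 0.14 and passed 0.1 in 2. These values were not compared with different-number pairs, so they cannot decide whether the numbers pair the pigs.

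ITIH4, ENSSSCG00000013514 and ENSSSCG00000035879 stayed lower in group C under every alternative that tested them, ITIH4 with −1.11 to −0.92 and adjusted p of 0.0386 to 0.193 without 1 pig. With sex as a covariate the adjusted p of all 3 was 0.078. Values near 0 changed sign. EGFR was −0.18 against 1 group of 10, SCD −0.032 with the block, and HSPA5 0.00025 with thinned counts. Without 1 pig SCD ran from −0.35 to 0.21, ACADM from −0.070 to 0.12 and HSPA5 from −0.14 to 0.082. The share of reads outside genes (0.538 percentage points) ran from −0.146 to 1.75, and genes with over 1 read (124) from −25.5 to 262, without 1 pig. Depth limits low genes such as CDHR5 most.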

Other observations

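Further gene lists gave no called gene in group C against the long-chain mean, and their counts at an unadjusted p under 0.05 were small. Antigen presentation genes were higher in value in 7 of 11 tested, with 2 of them, TAP2 (0.52, SE 0.22) and PSMB8 (0.64, SE 0.28), at an unadjusted p under 0.05 (18.2%, beside 4.79% of all genes). The median was 0.29, 0.07 without coconut oil pig 1 and −0.08 over the members with at least 10 reads in every pig. TAP2, which carries peptides into the endoplasmic reticulum, was at 14.7 to 21.6 CPM in group C, 10.3 to 15.4 CPM in group R and 5.25 to 16.1 CPM in group B. Proteasome subunits were split 14 to 14. At an unadjusted p under 0.05, 3 were higher (10.7%, beside 4.79% of all genes), among them PSMC3, a subunit of its base, at 0.71 (SE 0.21). PSMD4 was the 1 lower (3.57%, beside 4.8%). Cytosolic ribosomal proteins were higher in 27 and lower in 18 of 45, with RPL10 at 0.40 (SE 0.14) and RPS3 at −0.48 (SE 0.13). RPS3 was at 604 to 802 CPM in group C, 873 to 1210 CPM in group R and 684 to 1086 CPM in group B.

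Clock genes and their output were higher in value in 10 of 14 tested, with a median of 0.04. ALAS1, the first enzyme of heme synthesis, was at 30.2 to 112 CPM in group R, 44.6 to 267 CPM in group B and 106 to 268 CPM in group C (0.89, SE 0.30), and BHLHE40, a repressor of the clock, had −0.71 (SE 0.25). Of 13 glucocorticoid-induced genes 8 were higher, with a median of 0.44 from group R and −0.30 from group B. Drug and xenobiotic metabolism genes were split 5 to 6 with a median of −0.05, and POR, the electron donor of the cytochrome P450 enzymes, had −0.85 (SE 0.31), with beef tallow pig 3 at 45.3 CPM and all other pigs at 6.76 to 18.8 CPM. Sinusoidal endothelial markers were split 4 to 4, and stellate and fibroblast markers 5 to 5. LYVE1, of the endothelial list, had 0.42 (SE 0.17), which was 0.86 (SE 0.21) from group R and −0.02 (SE 0.20) from group B. JCHAIN, the one B and plasma cell marker tested, had −1.03 (SE 0.37). ACTA1, the one adipose and muscle marker tested, had −1.05 (SE 0.43, edgeR adjusted p = 0.447). It was at 6.76 to 38.6 CPM in group C, 16.2 to 115 CPM in group R and 12.2 to 47.7 CPM in group B.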
